A study of Mus musculus with 2 samples.

Results

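The genes described here are 10 members of the piRNA pathway and of the germ granule, out of 18193 mouse genes with a probe set of their own on the array. They were taken by name, and every probe set annotated with a member as its only gene was used, which gave 13 of 34945 such probe sets. The members are Dazl, Ddx4, Mael, Tdrd1, Tdrkh, Tdrd9, Asz1, Piwil2, Mov10l1 and Gtsf1. Their RNA was measured in mouse embryonic stem (ES) cells labelled as a Dnmt1 knockout (KO) and in ES cells labelled as the control of that KO, with 1 Affymetrix mouse genome array each. Dnmt1 is the enzyme that copies DNA methylation to the new strand after replication. The submitters made the arrays as a KO control for other work on ES cell differentiation. The title alone marks the KO array, since the source name of both samples calls them the control. The KO allele, the ES cell line, the number of clones and the culture conditions are not stated in the sources used here. Each group is 1 array without a replicate, so all values are single measurements and the groups cannot be tested against each other.

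PIWI-interacting RNAs (piRNAs) are small RNAs of the germ line that guide PIWI proteins to transposon transcripts, leading in fetal male germ cells to cleavage of those transcripts and to DNA methylation of the transposons. Precursor RNAs are handed to PIWI proteins by helicases and trimmed at the mitochondrial surface. Tudor-domain proteins bind methylated arginines of PIWI proteins and hold the machinery together in germ granules, also called nuage. Several of these genes carry CpG-rich promoters that are methylated in somatic tissues, and they are used as indicators of germline gene silencing in ES cells and embryos.

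Of the 10 members, 2 were higher on the KO array by 2-fold or more, 6 had a signal above the array median but differed by less than 2-fold, and 2 lay below the median signal of both arrays. None was 2-fold lower. The 2 higher members were Dazl, an RNA-binding regulator of translation in germ cells, and Gtsf1, a zinc finger protein that PIWI proteins need for transposon silencing. Mael, a nuage protein of the same silencing pathway, fell just short at 1.90-fold. The germ-cell helicase Ddx4, the mouse relative of Drosophila Vasa, was level with the median gene. The tudor genes Tdrd1 and Tdrd9 gave no signal above the median on either array. These ratios are relative to the median gene, which was 1.34-fold brighter on the KO array as deposited (0.43 on the log2 scale, over 10995 genes). Signals below an array's median probe set, 74.2 on the KO array and 60.9 on the control array, were raised to that floor. A gene is called measured where its signal exceeded the floor. If it was measured on 1 array, its ratio is only a bound, and if on neither, it has no ratio. Of the 8 members measured, 2 were 2-fold higher and 0 lower, beside 1.09% higher and 0.532% lower among 12226 genes measured on at least 1 array. The 8 leave out Tdrd1 and Tdrd9, which could give no ratio. They include Dazl, which exceeded the floor on the KO array only and so counts through the array where it is high. Of the 7 members measured on both arrays, Gtsf1 alone was 2-fold higher. Its ratio ranked number 23 among the 10995 genes measured on both arrays. Without the adjustment for the median gene, 4 of the 8 members and 4.92% of all genes were 2-fold higher, and 0 members and 0.0982% of all genes were 2-fold lower. In RNA from bulk cultures, more cells with a transcript and more transcript per cell cannot be told apart.

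The 2 arrays were first checked against their labels. The brightest Dnmt1 probe set gave 262.1 on the KO array and 1949.1 on the control array, and the other Dnmt1 probe sets gave 56.8 and 20.0 on the KO array against 874.7 and 348.3 on the control array, all in the direction of the titles. Their positions relative to the deletion are not known from the labels. All 8 ES cell markers, among them Pou5f1, Sox2 and Zfp42, were measured on both arrays. Of the 45101 probe sets on the array, 64 are Affymetrix controls and were left out. Probe sets differ in binding, so signals are compared between the arrays for each probe set, and signals of different genes are not read as amounts of RNA.

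Because Dnmt1 acts on CpG sites, the promoter windows of 5 members are shown with each CG in capitals: both higher members, Mael just under the threshold, the level Ddx4, and Tdrd9, which was below the median on both arrays. Each window runs 5′ to 3′ on the strand of the gene, from 250 bases before to 50 bases after the RefSeq start, on build GRCm38.p6.
Dazl (chr17:50293571-50293870, minus strand): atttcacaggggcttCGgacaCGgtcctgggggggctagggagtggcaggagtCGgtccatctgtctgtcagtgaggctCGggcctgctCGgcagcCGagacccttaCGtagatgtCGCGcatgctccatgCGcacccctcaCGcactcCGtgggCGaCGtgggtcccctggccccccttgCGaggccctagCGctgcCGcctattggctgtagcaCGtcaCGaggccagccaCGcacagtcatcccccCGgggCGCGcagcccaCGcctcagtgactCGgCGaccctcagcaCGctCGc
Gtsf1 (chr15:103430378-103430677, minus strand): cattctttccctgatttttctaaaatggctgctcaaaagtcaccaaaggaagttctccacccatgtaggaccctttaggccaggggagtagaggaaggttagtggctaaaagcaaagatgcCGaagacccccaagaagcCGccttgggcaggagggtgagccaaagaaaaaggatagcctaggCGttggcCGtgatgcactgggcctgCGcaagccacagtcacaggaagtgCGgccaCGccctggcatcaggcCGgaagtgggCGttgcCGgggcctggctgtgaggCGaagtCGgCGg
Mael (chr1:166238695-166238994, minus strand): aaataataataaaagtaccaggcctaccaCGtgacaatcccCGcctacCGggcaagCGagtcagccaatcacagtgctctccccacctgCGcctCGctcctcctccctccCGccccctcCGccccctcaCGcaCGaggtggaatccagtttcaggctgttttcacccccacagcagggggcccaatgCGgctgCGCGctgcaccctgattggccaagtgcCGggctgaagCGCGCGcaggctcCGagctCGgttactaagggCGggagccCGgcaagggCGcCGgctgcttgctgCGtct
Ddx4 (chr13:112652261-112652560, minus strand): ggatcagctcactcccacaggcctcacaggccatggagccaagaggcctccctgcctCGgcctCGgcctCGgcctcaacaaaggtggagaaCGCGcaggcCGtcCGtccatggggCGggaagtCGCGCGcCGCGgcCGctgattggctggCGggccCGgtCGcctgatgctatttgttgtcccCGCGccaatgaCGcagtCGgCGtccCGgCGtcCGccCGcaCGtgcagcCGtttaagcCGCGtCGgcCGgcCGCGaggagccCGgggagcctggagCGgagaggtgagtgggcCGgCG
Tdrd9 (chr12:111971309-111971608, plus strand): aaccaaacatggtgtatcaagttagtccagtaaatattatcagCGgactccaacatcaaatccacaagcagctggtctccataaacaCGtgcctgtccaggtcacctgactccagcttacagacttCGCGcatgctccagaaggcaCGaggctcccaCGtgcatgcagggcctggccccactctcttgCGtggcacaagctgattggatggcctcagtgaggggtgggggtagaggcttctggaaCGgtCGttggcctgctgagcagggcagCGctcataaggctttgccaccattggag
The window of Dazl holds 28 CG and that of Gtsf1 13. Mael has 24, Ddx4 38 and Tdrd9 10, where the median of 32851 RefSeq windows of the same length is 7 and the upper quartile 20. Methylation was not measured in these samples.

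RefSeq windows were matched for 9 of the 10 members, all but Piwil2, with 11 windows in all. Tdrd1 has 3 annotated starts with 20, 25 and 3 CG. The other windows hold 25 CG for Tdrkh, 20 for Mov10l1 and 17 for Asz1. A pair of short motifs was searched on both strands. The letters TCCCGC or GCGGGA, the core bound by E2F6, a repressor of germline genes in ES cells, occur in the windows of Mael and Ddx4 and in 20.0% of all windows. The E-box CACGTG, bound by Max dimers, occurs in windows of Ddx4, Mael, Tdrd1, Tdrd9 and Mov10l1 and in 7.15% of all windows. Each motif contains a CG, which is in capitals in the windows printed above. Apart from the Tdrd1 start with 3 CG, the member windows hold more CG than the median window (7). The shares over all windows were not matched for CG content. Neither Dazl nor Gtsf1 has either motif in this window. A match of letters is a description and not a binding site.

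**Figure D1:**
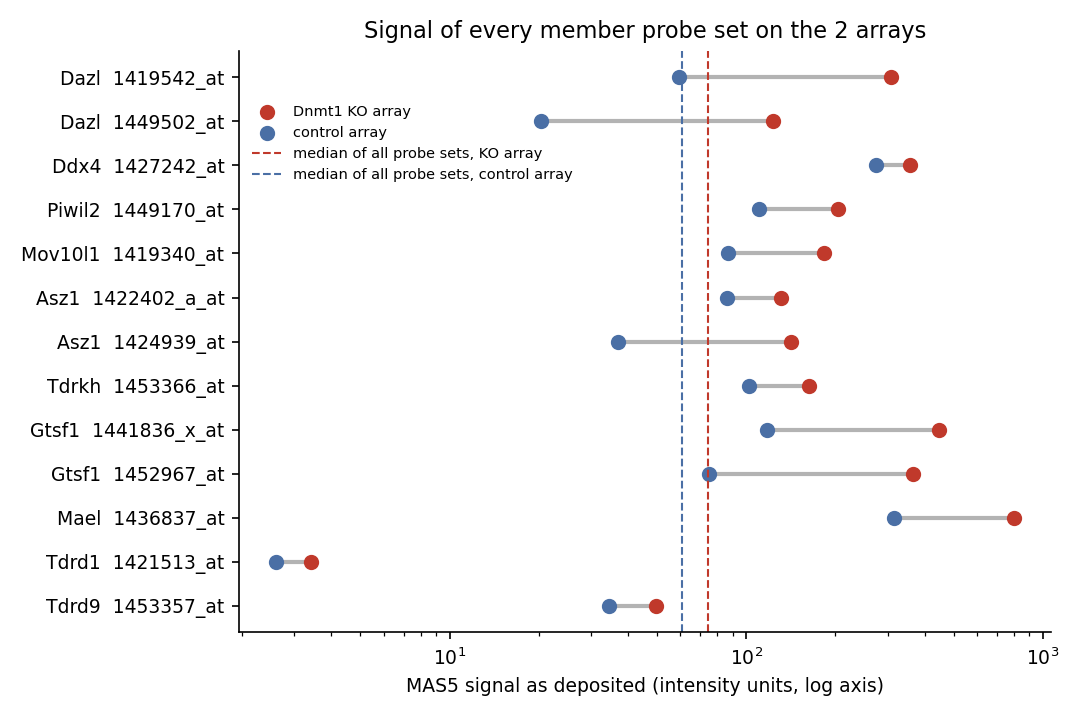
MAS5 signal as deposited (log axis) of every member probe set on the Dnmt1 KO array and the control array, with dashed lines at each array's median probe set. All 13 probe sets were brighter on the KO array as deposited, as were 77.8% of the 34945 probe sets with 1 gene and 11059 of the 12226 measured genes after the floor, and those of Tdrd1 and Tdrd9 lie left of both medians.

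Dazl binds the 3′ ends of germ-cell mRNAs and promotes their translation. Its brighter probe set gave 307.8 on the KO array and 59.5 on the control array, and its other probe set gave 123.0 on the KO array and 20.3 on the control array. Both were above the median on the KO array and below it on the control array, a pattern seen in 3.86% of all genes, while 2.91% of all genes showed the opposite one and 0 members did. The ratio was at least 3.76-fold relative to the median gene by the brighter probe set (log2 at least 1.91) and at least 1.504-fold by the dimmer (log2 at least 0.59). Because the control signal lies under the floor in both cases, these are bounds and not estimates of the ratio.

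Ddx4 is a helicase of the nuage and a general marker of germ cells. It gave 355.8 on the KO array and 274.9 on the control array, both well above the floor. The log2 ratio was -0.05 relative to the median gene and 0.37 as deposited, so its sign depended on the scaling. Its signal was above the median of both arrays, and its ratio did not stand apart from that of the median gene.

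Piwil2 (MILI) is the PIWI protein that carries the primary piRNAs of fetal male germ cells. Its signal was 204.1 on the KO array and 110.4 on the control array, a log2 ratio of 0.46 relative to the median gene (1.38-fold). Mov10l1, the helicase that feeds precursor RNA to PIWI proteins, gave 183.2 on the KO array and 86.6 on the control array, a log2 ratio of 0.66 (1.58-fold, or 2.12-fold as deposited). Both genes were measured on both arrays and were brighter on the KO array by less than 2-fold relative to the median gene.

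Asz1 (GASZ) anchors the machinery at the mitochondrial surface, and its probe sets differed in their ratios. The probe set that represents it gave 130.6 on the KO array and 86.5 on the control array, and its other probe set gave 142.0 on the KO array and 37.0 on the control array. Both were above the floor on the KO array, and only the second fell below it on the control array. The log2 ratio was 0.17 by the first and at least 0.80 by the second. Tdrkh, a tudor protein of the mitochondrial surface that takes part in trimming piRNA ends, gave 162.5 on the KO array and 102.2 on the control array, a log2 ratio of 0.24.

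Both probe sets of Gtsf1 were measured on both arrays. Its brighter one gave 446.9 on the KO array and 117.5 on the control array (2.83-fold relative to the median gene, log2 1.502), and its other gave 364.4 on the KO array and 74.7 on the control array (3.63-fold, log2 1.86). The mean log2 ratio was 1.68 ± 0.25 (SD over 2 probe sets of 1 pair of arrays, not over replicates). The brighter probe set has the suffix that Affymetrix gives where some probes may also match other transcripts. The dimmer one lacks that suffix and differed in the same direction. Among the 10995 genes measured on both arrays, the ratio of Gtsf1 ranked number 23 from the top.

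Mael gave 802.2 on the KO array and 314.2 on the control array, the member nearest to the threshold from below. Its log2 ratio was 0.93 relative to the median gene and 1.35 as deposited (2.55-fold), and 98.7% of genes measured on both arrays had a lower ratio. Gtsf1, at 2.83-fold, was the nearest from above. The ratio of Mov10l1 exceeded that of 96.6% of those genes, that of Piwil2 92.7%, that of Tdrkh 80.1%, that of Asz1 72.8% and that of Ddx4 42.8%. Dazl, Tdrd1 and Tdrd9 were not ranked, since they were not measured on both arrays.

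Tdrd1, a tudor scaffold that binds PIWI proteins, gave 3.4 on the KO array and 2.6 on the control array. Tdrd9, a tudor-domain helicase of the same pathway, gave 49.5 on the KO array and 34.6 on the control array. Each has 1 probe set, and neither reached the median of either array. No detection calls were used here, so these transcripts could not be called absent, and no change in them was measurable.

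As a technical scale, the SD of the log2 ratio between probe sets of the same gene was 0.24, pooled over 4704 genes. It covers neither culture nor array differences. Ddx4 lay within this distance of the median gene and Tdrkh at its edge. Asz1 lay within it by the probe set that represents it (0.17) and beyond it by the other (at least 0.80). Piwil2, Mov10l1 and Mael lay beyond it without reaching 2-fold. Of the 8 members measured, 7 were above the median gene, compared with 49.2% of all genes. Dazl is among the 7 and was measured on the KO array only, so it counts through the array where it is high. The members were also chosen with earlier results of these data known. The median log2 ratio of the 8 was 0.56 with Dazl at its bound, or 0.46 over the 7 members measured on both arrays. That of all 12226 genes was -0.005. Ratios of dim probe sets can scatter more than those of bright ones. Among the 7330 genes no brighter on the control array than Mael at 314.2, a limit set after the values were seen, 1.54% were 2-fold higher. Dazl (59.5) and Gtsf1 (117.5) were dimmer than Mael on the control array, and these genes were not matched to their brightness. The part of such scatter in their ratios was not tested.

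**Figure D2:**
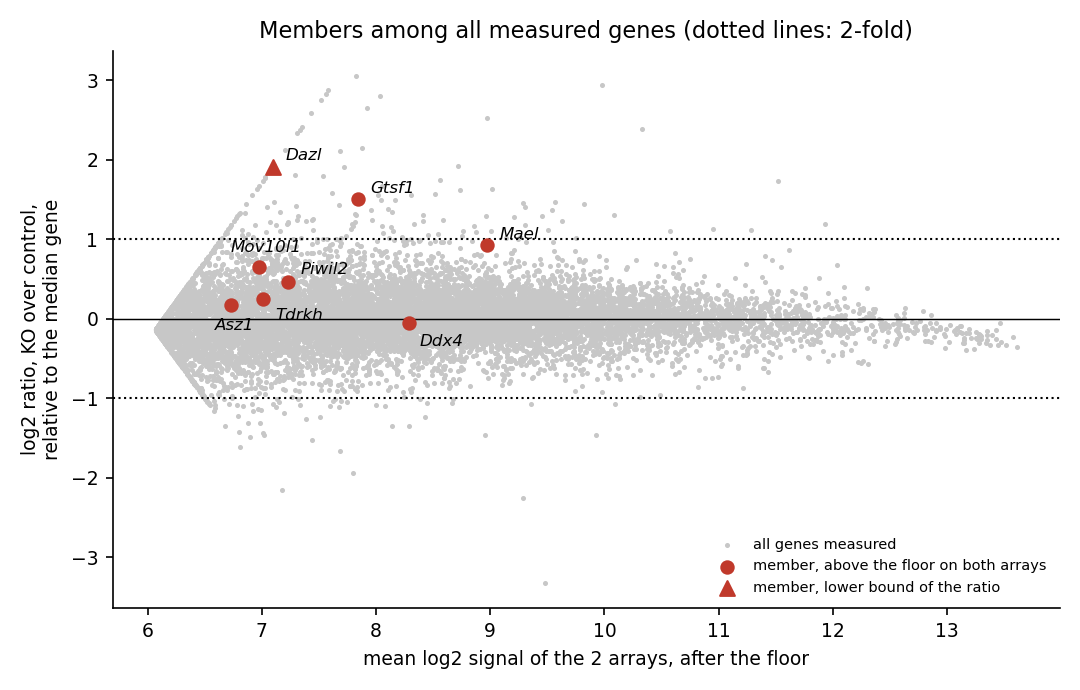
Log2 ratio of KO over control relative to the median gene against the mean log2 signal of both arrays, for all measured genes (grey) and the 8 measured members (red, with a triangle for the lower bound of Dazl). Dazl and Gtsf1 lie above the upper dotted line of 2-fold, Mael at 0.93 lies just under it, and Ddx4 lies at -0.05.

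The wider pathway was described from a list of 28 other piRNA and germ granule genes, of which 23 had a probe set of their own and 20 were measured on at least 1 array. Of these 20, 3 were 2-fold higher or more and 0 were lower, a share of 15% beside 1.09% of all genes. As deposited, 5 were 2-fold higher, beside 4.92% of all genes. The list median was 0.15 relative to the median gene and 12 of 20 were above it, with bounds taken as values. Piwil4, Tdrd7 and Mybl1 were measured on the KO array only, so their ratios are lower bounds. Piwil4 (at least -0.04) and Mybl1 (at least -0.13) were counted below the median gene, which a lower bound cannot show. Genes of this list were chosen for their known roles, with earlier results of these arrays known.

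The 3 higher genes were Rnf17, Stk31 and Tex19.1. Rnf17, a tudor and RING finger protein of male germ cells, gave 904.8 on the KO array and 276.3 on the control array (2.44-fold). The 3 of its probe sets measured on both arrays averaged a log2 ratio of 1.04 ± 0.32 (SD over probe sets). Stk31, a tudor-domain protein with a kinase-like domain, gave 263.6 on the KO array and 84.9 on the control array (2.31-fold), with 1.33 ± 0.18 over its 2 probe sets. Tex19.1, a mammal-specific protein of germ cells and ES cells needed for transposon control, gave 6847.5 on the KO array and 2227.1 on the control array (2.29-fold, log2 1.20).

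Morc1, an ATPase needed for transposon silencing in male germ cells, came next with 1028.7 on the KO array and 393.8 on the control array (log2 0.96). Gtsf1l, a paralog of Gtsf1, had a log2 ratio of 0.61 and Tdrd12, a tudor helicase of secondary piRNA production, 0.47. At the other end of the list, the lowest measured on both arrays were Boll (-0.36), Tdrd5 (-0.32) and Pnldc1 (-0.27). The other PIWI genes were dim. Piwil1 (MIWI), the PIWI protein of later spermatogenesis, gave 36.7 on the KO array and 6.6 on the control array, below the floor on both. Piwil4 (MIWI2), the nuclear PIWI protein of fetal male germ cells, gave 79.3 on the KO array and 7.5 on the control array by its brighter probe set, whose probes may also match other transcripts, and its other probe set was below the floor on both. Henmt1, which methylates piRNA ends, and Btbd18, a nuclear factor for pachytene piRNA transcription, were also below the floor on both arrays. Mybl1, a transcription factor of pachytene piRNA genes, was just above the floor on the KO array alone with 74.8, against 54.6 on the control array.

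Genes for small RNA and RNA granule functions that all cells share served as a comparison. All 19 genes of this list were measured on at least 1 array, and none was 2-fold different in either direction, on either scale. Ago4, measured on the KO array only, was taken at its lower bound (-0.09). Their median log2 ratio was 0.05. Of those measured on both arrays, the 6 with the largest ratios were Drosha, the nuclear microRNA processing enzyme (-0.36), Dicer1, which makes mature microRNAs (0.33), the partner of Drosha, Dgcr8 (0.32), the tudor nuclease Snd1 (0.31), the decapping factor Dcp1a (0.28) and the tudor gene Tdrd3 (0.22). Mov10, the ubiquitous relative of Mov10l1, had 284.4 on the KO array and 204.5 on the control array, a log2 ratio of 0.05. Ago2, a relative of the PIWI genes, had 0.16. Some of these genes had several probe sets measured on both arrays. Their means (± SD over probe sets) were -0.24 ± 0.11 for Drosha, 0.10 ± 0.33 for Dicer1 and 0.29 ± 0.25 for Dgcr8. For Mov10 and Ago2 they were 0.10 ± 0.07 and -0.08 ± 0.29. No test of the difference between Mov10l1 and Mov10 exists with 1 array per group.

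**Figure D3:**
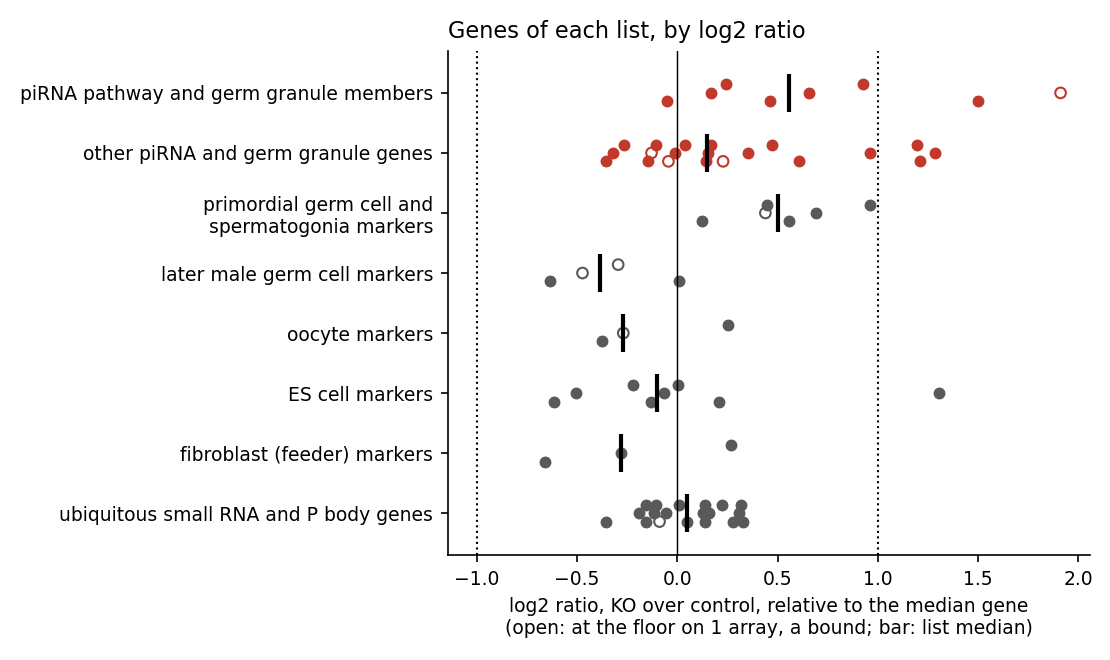
Log2 ratio of KO over control relative to the median gene for the measured genes of each list (points; open where the gene is at the floor on 1 array) with the list median (bar). The members have a median of 0.56 and the other piRNA and germ granule genes 0.15, with Rnf17, Stk31 and Tex19.1 beyond the dotted line of 2-fold, and the ubiquitous genes lie between -0.36 and 0.33.

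Markers of germ cell stages and of other cells were read beside the members. Of 7 markers of primordial germ cells and spermatogonia on the array, 6 were measured. All 6 were above the median gene, beside 49.2% of all genes. Prdm14, with 110.9 on the KO array and 36.5 on the control array, was measured on the KO array only. It therefore counts through the array where it is high. Its log2 ratio was at least 0.44, or at least 0.86 as deposited. With Prdm14 at its bound, 0 of the 6 were 2-fold higher, beside 1.09% of all genes. As deposited, 2 of the 6 were 2-fold higher, beside 4.92% of all genes. These were Kit at a log2 ratio of 1.39 and Dppa3 at 1.12. Relative to the median gene, the median log2 ratio of the 6 was 0.50. Zbtb16 was lowest at 0.12, and Kit was highest of those measured on both arrays at 0.96. The summed signal of all 7 as deposited, over the brightest probe set of each gene, was 2519.4 on the KO array and 1166.1 on the control array. ES cells also express some of these genes, such as Dppa3. Gfra1, a marker of spermatogonial stem cells, was below the floor on both arrays at 9.8 on the KO array and 11.4 on the control array. The part of these markers in the members' values was not tested.

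The 4 measured of 8 markers of later male germ cells had a median log2 ratio of -0.38 and none was 2-fold different, with bounds taken as values. Prm1 (at most -0.47) and Sycp1 (at most -0.30) were measured on the control array only, so a larger decrease in them could not be seen. The other 4 were below the floor on both arrays, and the spermatid gene Tnp1 gave 2.4 on the KO array and 9.6 on the control array. The meiotic axis gene Sycp3 gave 190.8 on the KO array and 220.6 on the control array (log2 -0.63), the lower of those measured on both arrays. Prm2 was the highest of the 4 measured at 0.01. The list sum was 508.8 on the KO array and 526.3 on the control array. Of 7 oocyte markers, 3 were measured. The log2 ratio was -0.38 for Gdf9, 0.25 for Zp3 and at most -0.27 for Zp1, which was measured on the control array only. The oocyte list sum was 538.8 on the KO array and 410.4 on the control array. Of 7 fibroblast markers, which feeder cells would carry, 3 were measured, from -0.66 (Col1a1) to 0.27 (Thy1), with a list sum of 962.0 on the KO array and 714.2 on the control array. No marker in these lists was at 0 on either array. Bounds were taken as values in the list medians. Those of the later male germ cell, oocyte and fibroblast lists were below the median gene by every scaling that levels the arrays. As deposited, these medians were above 0. Among the 8 ES cell markers, 1 was 2-fold higher (12.5%, beside 1.09% of all genes) and 0 were lower (beside 0.532%). The higher one was Nanog at 1.30 (2.47-fold), and Utf1 was the lowest at -0.62. The median of the ES cell markers, -0.10, changed sign with quantile normalization (0.005) and as deposited (0.33).

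**Figure D4:**
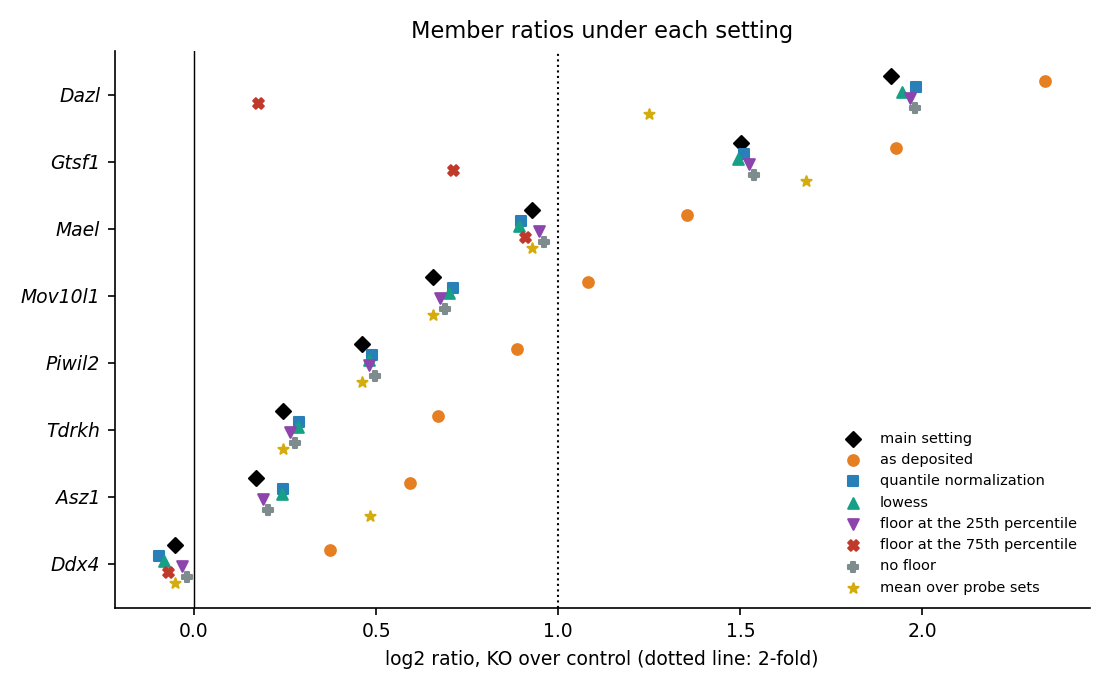
Log2 ratio of KO over control of each member under the main setting and each alternative scaling, floor and probe set summary (symbols), with a dotted line at 2-fold. Dazl and Gtsf1 lie right of the line in all settings except the floor at the 75th percentile, at 0.17 and 0.71, and Mael and Mov10l1 cross it as deposited, at 1.35 and 1.08.

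The division of the members depended on the scaling and the floor. Dazl and Gtsf1 were 2-fold higher or more under 7 of 8 settings each, all but the floor at the 75th percentile, which lies above both their control signals. Mael and Mov10l1 were 2-fold higher in 1 setting, the ratios as deposited. Ddx4 was between -0.10 and -0.02 in every setting that levels the arrays and 0.37 as deposited. Mael, Mov10l1, Piwil2, Tdrkh and Asz1 were above 0 in every setting that measured them.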

How the data were processed

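Total RNA of ES cells was hybridised as biotin-labelled cRNA, per the labels' protocols. The deposited signal intensities were made by the authors with MAS5, per the submitters' processing notes. MAS5 turns the probes of each probe set into a linear value. The target intensity and any scaling are not stated in the sources used here, and no detection calls were used. The medians, 74.2 on the KO array and 60.9 on the control array, show that the arrays were not brought to 1 median. Whether they share a mean was not computed. The number of arrays limits the precision.

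Gene names came from the platform annotation. It gives several genes for 932 probe sets and does not list 9211. Of 34945 probe sets with 1 gene, 34741 matched the RefSeq table of GRCm38.p6 by gene identifier. Each gene's values are those of the probe set with the highest mean log2 signal, after the floor at each array's median. Log2 ratios (KO over control) were centred on the median gene. The threshold was 2-fold. No p-value was computed. Alternatives changed the scaling (as deposited, quantile, lowess with a span of 0.3), the floor, the probe set summary and the threshold. The computation was tested on simulated data, with pandas 2.3.3 and statsmodels 0.14.6.

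Named were all members, the targeted gene, the genes of the other pathway lists at least 2-fold different and the 6 with the largest ratios and the highest and lowest markers. A planned list of genes with signals nearest to those of the leading member is not reported, since all were below the floor on the control array. Other genes named, among them Piwil1, Piwil4, Mov10 and Ago2, were chosen after their values were seen. Members and lists were chosen with earlier results of these data known.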

Additional observations from a re-analysis of the deposited data

How the results depend on the processing

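The number of members at least 2-fold higher was 2 in the main setting and stayed 2 with quantile normalization, lowess, a floor at the 25th percentile, no floor and the mean over probe sets. It was 4 as deposited, 0 with the floor at the 75th percentile, where 4 members were measured, 4 at a threshold of 1.5-fold and 1 at 3-fold. Members measured numbered 9 with the floor at the 25th percentile, 10 with no floor and 8 where the floor was the median. Among the other piRNA and germ granule genes, 3 in the main setting became 5 as deposited, 5 at 1.5-fold and 0 at 3-fold. No member or other pathway gene was lower past the threshold under any of these alternatives. The median log2 ratio of the members was 0.56, or 0.98 as deposited. The number of genes measured also changed with the floor. Of 12226 genes, 133 were higher in the main setting, 602 as deposited, 579 at 1.5-fold and 32 at 3-fold. Quantile normalization gave 153 of 12226, lowess 143 and the mean over probe sets 106. It was 361 of 15813 genes with the floor at the 25th percentile, 48 of 7145 at the 75th and 936 of 18192 without a floor. Higher against lower genes numbered 133 and 65 in the main setting and 602 and 12 as deposited. The mean over probe sets lowered the bound of Dazl to 1.25 and raised Asz1 to 0.48. Tdrd9 had a ratio only with the floor at the 25th percentile (0.11) and with no floor (0.13). No paired analysis was possible because each group has 1 array, and for the same reason no array could be left out.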
